A study of Saccharomyces cerevisiae with 3 samples.

Results

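RPN4 and the genes of 32 proteasome subunits were examined in budding yeast, 33 of the 5777 genes measured on the array. The members were taken as a list of standard gene names and found by locus tag, and all 33 were present. They comprise 14 genes of the core particle, 18 genes of the regulatory particle and the transcription factor gene RPN4.

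The proteasome degrades proteins that carry ubiquitin chains. Its core particle is a barrel of stacked alpha and beta rings with the proteolytic sites inside, and the regulatory particle caps the barrel. In the cap, the base holds a ring of ATPases that unfold the substrate, and the lid removes the ubiquitin chain. In yeast, Rpn4 activates the genes of the subunits through a promoter element that most of them share. Rpn4 is itself degraded quickly by the proteasome, which closes a negative feedback loop. Transcription of RPN4 is activated by Pdr1 and Pdr3, the regulators of pleiotropic drug resistance, and by Yap1 and Hsf1.

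RNA of 3 cultures of strain DS10 was pooled for each of 3 arrays, and the arrays differed in the plasmid that the cells carried. In every group the plasmid was the low-copy pRS415 with the constitutive GPD promoter, and cells were fresh transformants taken in log phase from medium lacking leucine. One group expressed Ssz1 S295F, 1 expressed residues 365 to 433 of Zuo1 with S427G (called the Zuo1 fragment), and the vector group carried the same plasmid with TAP. The sample titles call the cells WT in all groups. Ssz1 and Zuo1 are ribosome-associated chaperones that can also activate Pdr1. SSZ1 had an intensity of 19318 with Ssz1 S295F, 12001 with the Zuo1 fragment and 10279 with vector. ZUO1 read 13744, 12935 and 13337 in the same order, but where its probes lie relative to the fragment was not examined, so this value does not check the fragment.

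Each group had 1 array, so no spread between cultures was measured and no p-value is given. Errors on log2 ratios are SDs over the 3 blocks of spots, which reflect technical noise and not the spread between cultures. Genes at or beyond a log2 ratio of 1 in either direction are called past 2-fold, with no test behind the call. Both comparisons with vector use the same vector array, so their values are given side by side and are not independent. The median log2 ratio of all genes was -0.15 for Ssz1 S295F over vector and -0.12 for the Zuo1 fragment over vector. A gene whose ratio lay between that median and 0 was therefore below vector but above the middle gene of the array, and its sign turns when the ratios are centred on the median. By sign alone, 3802 of 5777 genes were below vector with Ssz1 S295F, as were 3898 in the Zuo1 fragment comparison.

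RPN4 was the member that stood apart. It lies on chromosome IV at 415110 to 416705, in coordinates of the array's own annotation, and it overlapped no other measured gene. Its 3 block intensities were 4617, 4511 and 4469 on the Ssz1 S295F array, 3929, 3944 and 3852 on that of the Zuo1 fragment, and 2032, 2178 and 2072 on that of vector. The blocks of both construct arrays lay above every vector block, and those of Ssz1 S295F lay above those of the Zuo1 fragment. The log2 ratio was 1.11 ± 0.07 for Ssz1 S295F over vector, a 2.17-fold difference. For the Zuo1 fragment over vector it was 0.90 ± 0.05, or 1.87-fold, short of the 2-fold rule. Between the constructs, the Zuo1 fragment over Ssz1 S295F gave -0.21 ± 0.02.

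RPN4 was the only member past 2-fold with Ssz1 S295F, 1 of 33, where 5.02% of all genes were higher and 2.77% lower past 2-fold. For the Zuo1 fragment, 0 of 33 members passed, against 3.64% of all genes higher and 0.866% lower. Between the constructs 0 of 33 passed, against 0.138% of genes in each direction, and at 1.5-fold the count was again 0, against 0.675% of genes higher and 1.38% lower. Over all genes, 243 had a higher ratio than RPN4 with Ssz1 S295F and 242 had one with the Zuo1 fragment, 4.21% and 4.19% of the array. Its log2 ratio lay 1.24 above the median of the 32 subunits for Ssz1 S295F and 1.01 above it for the Zuo1 fragment.

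The known activators of RPN4 differed less than RPN4 itself. PDR3 read 2676 with Ssz1 S295F, 2442 with the Zuo1 fragment and 2088 with vector, and YAP1, the regulator of the oxidative stress response, read 6333, 6092 and 5101. The log2 ratios of PDR3 were 0.36 ± 0.04 and 0.23 ± 0.06 for the constructs over vector, and those of YAP1 were 0.31 ± 0.04 and 0.26 ± 0.03. Both genes were thus above vector on both construct arrays. PDR1 read 1598, 1344 and 1416, with ratios of 0.17 ± 0.01 and -0.08 ± 0.05. HSF1, the heat shock factor gene, read 3564, 2945 and 2989, with ratios of 0.25 ± 0.08 and -0.02 ± 0.02. PDR1 and HSF1 were therefore above vector with Ssz1 S295F. On the array of the Zuo1 fragment they were slightly below vector but above the median of all genes, at 0.05 and 0.10 relative to it. All 4 activators lay above that median in both comparisons, as did 2888 of 5777 genes. Their coding spans are long, 1953 to 3207 bp, and the ratios varied with span across the array, as described below. After a local fit on span was subtracted, the 4 genes were at 0.12 to 0.29 with Ssz1 S295F. With the Zuo1 fragment PDR3 and YAP1 were then at 0.20 and 0.20, but PDR1 and HSF1 were below 0, at -0.10 and -0.06. None of the 4 genes reached 1.5-fold. Activity of the encoded factors is not read from their own transcripts.

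The ubiquitin ligase that marks Rpn4 for degradation consists of the ligase Ubr2, its partner Mub1 and the ubiquitin-conjugating enzyme Rad6. MUB1 read 1856 with Ssz1 S295F, 1678 with the Zuo1 fragment and 1136 with vector, giving ratios of 0.71 ± 0.05 and 0.56 ± 0.11. UBR2 read 1423, 1167 and 1077, with ratios of 0.40 ± 0.02 and 0.12 ± 0.02. RAD6 went the other way, at 1394, 1550 and 1841, with ratios of -0.40 ± 0.01 and -0.25 ± 0.02. The components of the ligase thus did not move together, and 1 of 3, MUB1 with Ssz1 S295F, passed 1.5-fold, a size that 10.2% of genes reached on the higher side in that comparison. MUB1 and UBR2 read low with vector, at the 20.8th and 19.9th percentiles of that array, so the size of their ratios is less certain. The coding spans of UBR2 (5619 bp), MUB1 (1863 bp) and RAD6 (519 bp) differ widely, and the ratios varied with span across the array, as described below for the subunits. After a local fit on span was subtracted, RAD6 was at 0.06 and 0.09, MUB1 at 0.63 and 0.51, and UBR2 at 0.36 and 0.13.

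**Figure D1:**
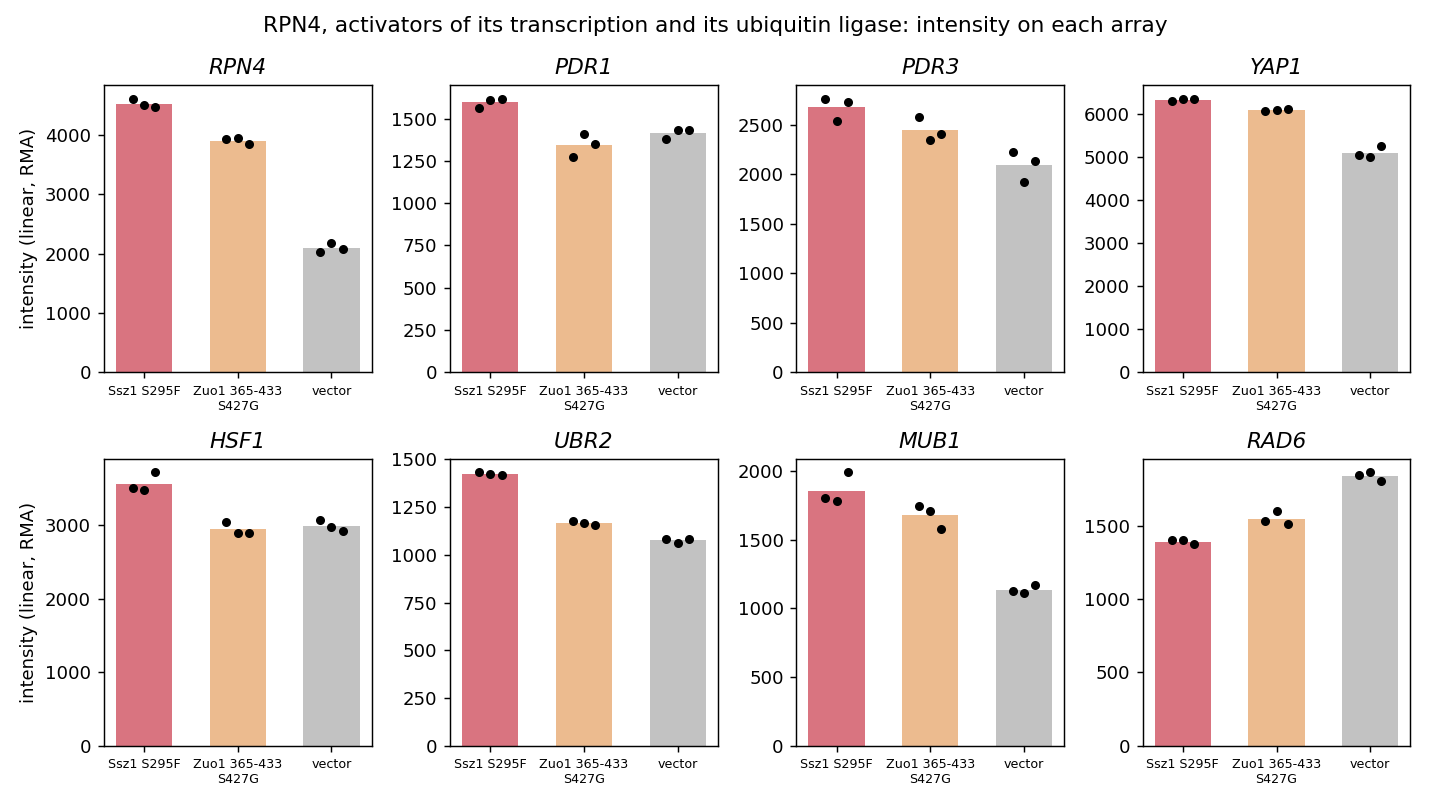
Intensity (linear scale, RMA) of RPN4, of 4 activators of its transcription and of the 3 genes of its ubiquitin ligase on the Ssz1 S295F, Zuo1 365-433 S427G and vector arrays. Bars are the means over 3 blocks on the log2 scale and points are the blocks, and each panel has its own axis from 0. RPN4 reads 4532, 3908 and 2093, a wider gap to vector than any other gene shown.

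The subunit genes lay close to the middle gene of the array. Their 32 ratios had a median of -0.13 with Ssz1 S295F, ranging from -0.47 to 0.48, and a median of -0.11 with the Zuo1 fragment, ranging from -0.28 to 0.41. Relative to the median of all genes these medians were 0.02 and 0.01. The 2699 genes at or above the mean level of the dimmest subunit had medians of -0.09 and -0.06, and against these the subunit medians were the lower ones, so the direction depended on which genes they were set against. No subunit reached 1.5-fold in either comparison, while 10.2% of all genes were higher and 13.1% lower past 1.5-fold with Ssz1 S295F, and 7.60% and 7.17% with the Zuo1 fragment. The interquartile range of the subunit ratios was 0.17 with Ssz1 S295F, against 0.52 for all genes and 0.37 for those 2699 genes. With the Zuo1 fragment it was 0.14, against 0.40 and 0.28.

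By sign, 25 of 33 members were lower than vector in every block with Ssz1 S295F and 5 were higher in every block, where 61.1% of all genes were lower and 30.0% higher by that rule. With the Zuo1 fragment 24 members were lower and 7 higher in every block, against 62.0% and 28.1% of genes. Most of the array was thus on the lower side too. RPN4 was among the higher members in both comparisons. The signals were well above the dim end of the array, since the lowest member reading on any array was that of RPN4 with vector, 2093, where the 25th percentile of that array was 1374.

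**Figure D2:**
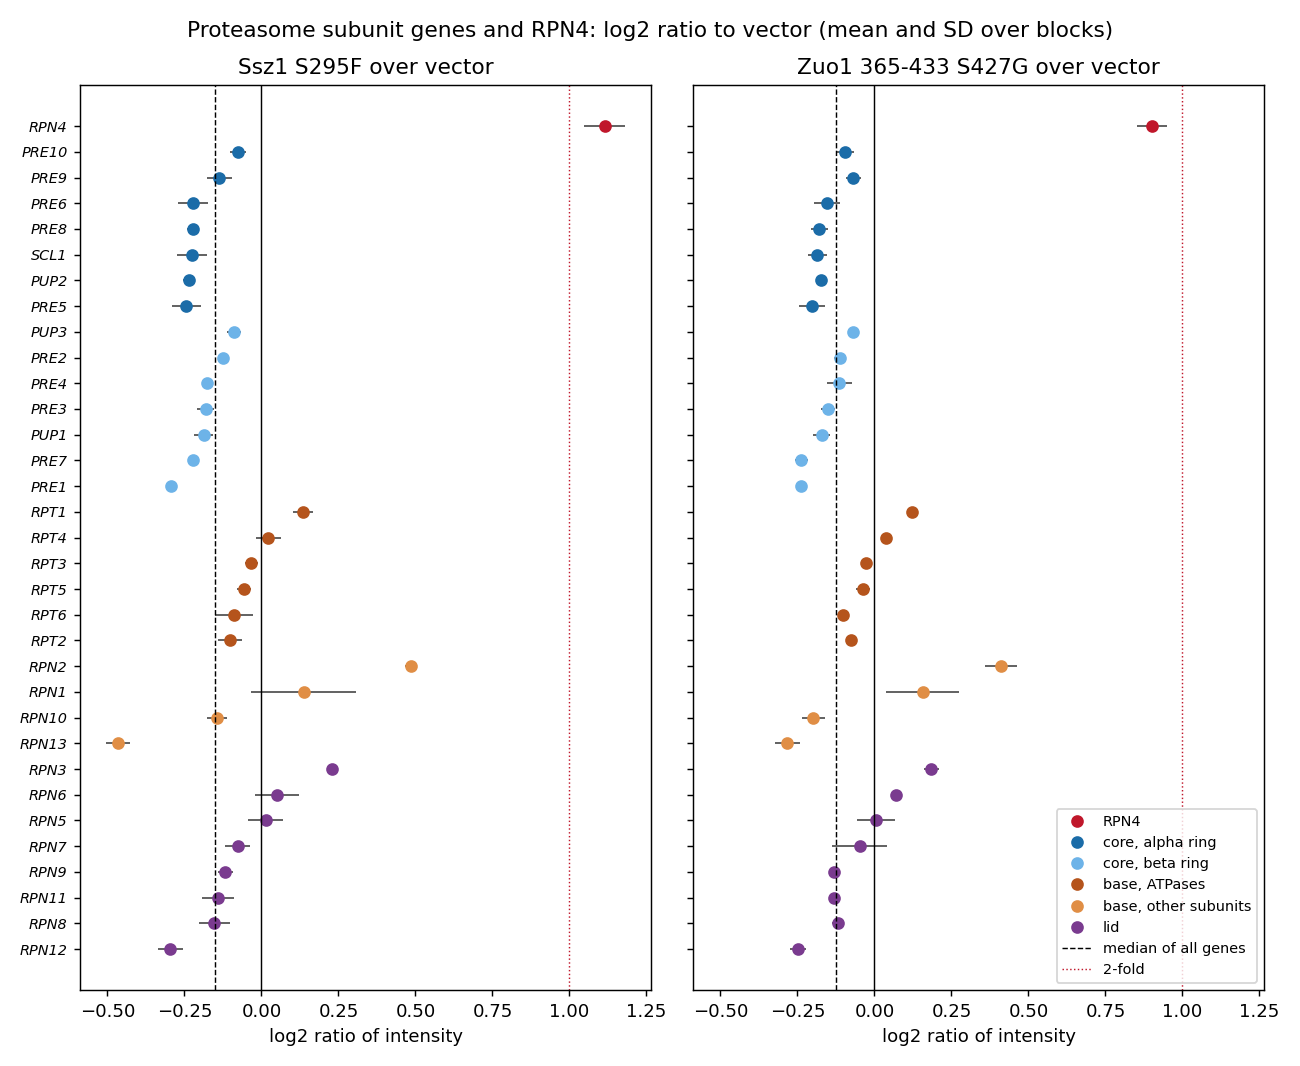
Log2 ratio of intensity to vector for RPN4 and 32 proteasome subunit genes, by position in the complex, for Ssz1 S295F (left) and Zuo1 365-433 S427G (right). Points are means and bars SDs over 3 blocks. The dashed line is the median of all genes (-0.15 and -0.12) and the dotted line marks 2-fold. RPN4 stands at 1.11 and 0.90, and the subunits lie between -0.47 and 0.48.

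All 14 core particle genes were lower than vector in every block of both comparisons, by small amounts. With Ssz1 S295F their median ratio was -0.20, or 13.2% below vector, and for the Zuo1 fragment it was -0.16, or 10.6% below vector. Relative to the median of all genes the core medians were -0.05 and -0.04, with 4 and 5 of the 14 genes above it. The 2699 genes at or above the mean level of the dimmest subunit had medians of -0.09 and -0.06, and the core medians lay further below these. How much of the difference from vector was shared with other genes thus depended on which genes the core was set against. After the fit on coding span, the sign was reversed and all 14 were above 0, as given below.

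In the alpha ring, which forms the gated entry of the barrel, the 7 genes had medians of -0.22 and -0.17. PRE5 was the lowest of the ring, at 4223 with Ssz1 S295F, 4350 with the Zuo1 fragment and 5003 with vector, with ratios of -0.24 ± 0.05 and -0.20 ± 0.04. PUP2 (-0.24 and -0.17), SCL1 (-0.23 and -0.19), PRE6 (-0.22 and -0.15) and PRE8 (-0.22 and -0.18) differed from it by no more than about a block SD with Ssz1 S295F. PRE9, the one core gene that yeast can lose and live, read 5680, 5958 and 6247, with ratios of -0.14 ± 0.04 and -0.07 ± 0.02. PRE10 read 8896, 8775 and 9379 and was nearest to vector of the ring with Ssz1 S295F, at -0.08 ± 0.03, with -0.10 ± 0.03 for the Zuo1 fragment.

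In the beta ring the 7 genes had medians of -0.18 and -0.15. The genes of the catalytic subunits are PRE3 (caspase-like activity), PUP1 (trypsin-like) and PRE2 (chymotrypsin-like). PRE3 read 7483 with Ssz1 S295F, 7649 with the Zuo1 fragment and 8487 with vector, PUP1 read 7926, 8019 and 9027, and PRE2 read 9300, 9368 and 10130. Their ratios were -0.18 ± 0.03, -0.19 ± 0.03 and -0.12 ± 0.02 with Ssz1 S295F, and -0.15 ± 0.02, -0.17 ± 0.03 and -0.11 ± 0.02 with the Zuo1 fragment. The catalytic genes thus lay inside the range of the other beta genes. PRE1, which encodes a subunit without a catalytic site, was the lowest core gene with Ssz1 S295F, reading 5245 against 5444 with the Zuo1 fragment and 6429 with vector (-0.29 and -0.24). After the fit on span the lowest core gene with Ssz1 S295F was PUP2, at 0.12, with PRE1 and PRE5 both at 0.14. PRE7 (-0.22 and -0.24) and PRE4 (-0.18 and -0.11) lay between, and PUP3 was close to vector at -0.09 ± 0.02 and -0.07 ± 0.01.

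The regulatory particle genes were more varied than the core genes. The median of the 18 ratios stood at -0.07 for Ssz1 S295F and at -0.04 for the Zuo1 fragment, and 11 of 18 were below vector in each comparison, where 3802 and 3898 of 5777 genes were. Relative to the median of all genes these medians were 0.08 and 0.08, with 15 and 13 of 18 genes above it, so their sign turned when the ratios were centred.

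The ATPase ring was the most even of the groups in the regulatory particle with Ssz1 S295F. Its 6 genes, RPT1 to RPT6, lay between -0.10 and 0.14 for Ssz1 S295F and between -0.10 and 0.12 for the Zuo1 fragment. RPT1 was the highest, at 12390 and 12276 with the constructs and 11281 with vector, with ratios of 0.14 ± 0.03 and 0.12 ± 0.01. RPT4 (0.02 and 0.04), RPT3 (-0.03 and -0.03), RPT5 (-0.06 and -0.04), RPT6 (-0.09 and -0.10) and RPT2 (-0.10 and -0.08) followed. All 6 lay above the median of all genes in both comparisons.

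The other base subunits held both ends of the subunit range. RPN2, the scaffold that anchors the ubiquitin receptor Rpn13, read 15006 with Ssz1 S295F, 14262 with the Zuo1 fragment and 10726 with vector. Its ratios of 0.48 ± 0.02 and 0.41 ± 0.05, 1.40-fold and 1.33-fold, were the highest of any subunit. RPN13 read 2538, 2881 and 3504, and its ratios of -0.47 ± 0.04 and -0.28 ± 0.04 were the lowest. Scaffold and receptor thus lay on opposite sides of vector, with 2838 bp and 471 bp of coding span, but after the fit on span both were above 0, RPN2 at 0.42 and 0.38 and RPN13 at 0.02 and 0.07. RPN10, which encodes another ubiquitin receptor, read 9846, 9481 and 10884 (-0.14 ± 0.03 and -0.20 ± 0.04). RPN1, the scaffold that docks ubiquitin shuttles, read 7702, 7803 and 7001, but its ratios of 0.14 ± 0.17 and 0.16 ± 0.12 had the widest block SDs of the members. Its ratio with Ssz1 S295F was 0.08, 0.00 and 0.33 in the 3 blocks, so no difference from vector was resolved there.

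In the lid, the 8 genes had medians of -0.10 and -0.08, which were 0.05 and 0.04 relative to the median of all genes, with 6 and 5 of the 8 above it. RPN3 was the highest, at 6809 with Ssz1 S295F, 6598 with the Zuo1 fragment and 5804 with vector, with ratios of 0.23 ± 0.01 and 0.18 ± 0.03. RPN12, whose product joins the lid last, was the lowest, at 3017, 3119 and 3703, with ratios of -0.30 ± 0.04 and -0.25 ± 0.03. It spans 825 bp, and after the fit on span it was at 0.04 and 0.02. The lowest lid genes were then RPN7 with Ssz1 S295F, at 0.008, and RPN9 with the Zuo1 fragment, at 0.002. RPN11, the deubiquitinase of the lid, read 6474, 6520 and 7135 (-0.14 ± 0.05 and -0.13 ± 0.02), and RPN8, its partner, read 4870, 4992 and 5417 (-0.15 ± 0.05 and -0.12 ± 0.02). Enzyme and partner thus had nearly the same ratios. RPN5 (0.01 and 0.01), RPN6 (0.05 and 0.07) and RPN7 (-0.08 and -0.05) lay near vector, RPN7 being at 0.07 and 0.08 once centred, and RPN9 was at -0.12 and -0.13.

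Core and regulatory particle differed in their medians, and the difference went with coding span. For Ssz1 S295F over vector the core median minus the regulatory median was -0.14 ± 0.02, and for the Zuo1 fragment over vector -0.12 ± 0.01. Of the 18 regulatory genes, 9 and 10 had a higher ratio than every core gene, and 2 were lower than every core gene in each comparison. Core genes are short, with spans of 597 to 867 bp and a median of 764.5 bp, while regulatory genes span 471 to 2982 bp with a median of 1297.5 bp. Span here runs from start to stop codon and includes any intron.

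The 3 regulatory genes no longer than the longest core gene, RPN10, RPN12 and RPN13, had a median of -0.30 for Ssz1 S295F and -0.25 for the Zuo1 fragment, below the core medians. The other 15 had medians of -0.03 in both comparisons. Among genes of 656 to 1026 bp, 12 core genes had a median of -0.20 and 4 regulatory genes one of -0.15 with Ssz1 S295F, while all 1159 genes of that span had -0.31. With the Zuo1 fragment the same values were -0.16, -0.16 and -0.25. At 1029 to 1461 bp, the 10 regulatory genes had medians of -0.04 and -0.03, against -0.11 and -0.11 for all 1153 genes. In both ranges of span, the medians of the subunit genes lay above that of all genes of like span. Those genes were matched in span but not in level, and they include dim genes. Brighter genes were higher in general, since the 2699 genes above had medians of -0.09 and -0.06, against -0.15 and -0.12 for all genes.

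Across the 32 subunits, the ratio and the coding span had a Spearman correlation of 0.87 for Ssz1 S295F and of 0.83 for the Zuo1 fragment (Pearson 0.88 in both, on log2 span). Within the regulatory particle it was 0.92 and 0.94 over 18 genes, and within the core 0.56 and 0.56 over 14 genes. Over all genes it was 0.55 and 0.52. These are descriptions across genes that were read on the same arrays, with no test. For the Zuo1 fragment over Ssz1 S295F the correlation had the opposite sign, -0.57 over the subunits and -0.41 over all genes. The source of the trend was not tested.

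**Figure D3:**
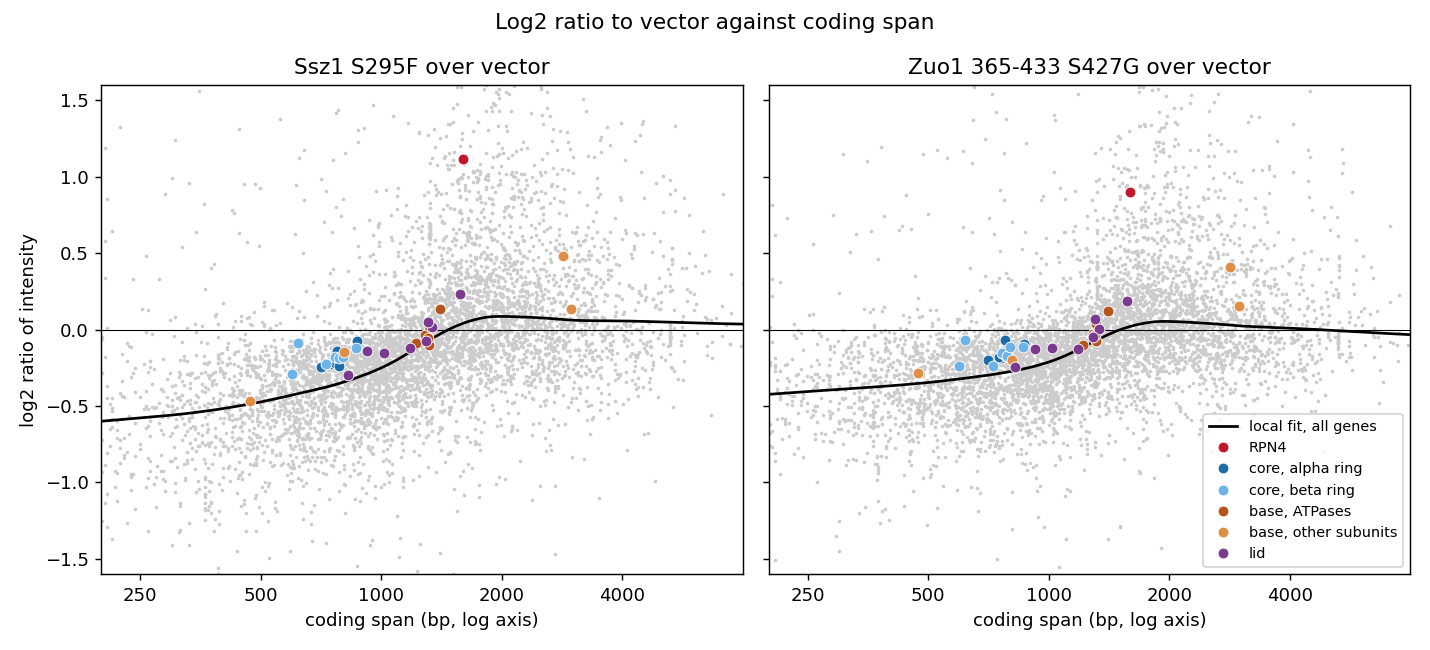
Log2 ratio of intensity to vector against coding span (log axis, bp) for Ssz1 S295F (left) and Zuo1 365-433 S427G (right). Grey points are all genes, with those outside the axes not drawn, the line is a local fit over all genes, and coloured points are the members. The subunits run along the upper side of the line from short core genes to long scaffold genes, and RPN4 stands well above it.

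When the local fit on span over all genes was subtracted, the order of core and regulatory particle turned. The core median became 0.16 for Ssz1 S295F and 0.12 for the Zuo1 fragment, and the regulatory median 0.07 and 0.07. The core minus regulatory difference was then 0.08 and 0.05, in place of -0.14 and -0.12. All 14 core genes and 17 of 18 regulatory genes were above 0 in both comparisons, RPT2 being the exception at -0.03 and -0.01. The median of all genes was then 0.02 and 0.02, so most of the array was above 0 too. For the 2699 genes at or above the mean level of the dimmest subunit it was 0.08 and 0.09. The core medians lay above these values, but the regulatory medians did not exceed those of the 2699 genes. The 2699 genes had a median span of 1290 bp, against 764.5 bp for the core. No set matched to the core in both span and level was compared, so these values do not set the core apart from short bright genes. Of the subunits, RPN2 (0.42 and 0.38) and PUP3 (0.33 and 0.25) were then the highest. RPN4 changed little, to 1.07 and 0.88. Which of span or position in the complex the difference follows was not tested beyond these values.

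**Figure D4:**
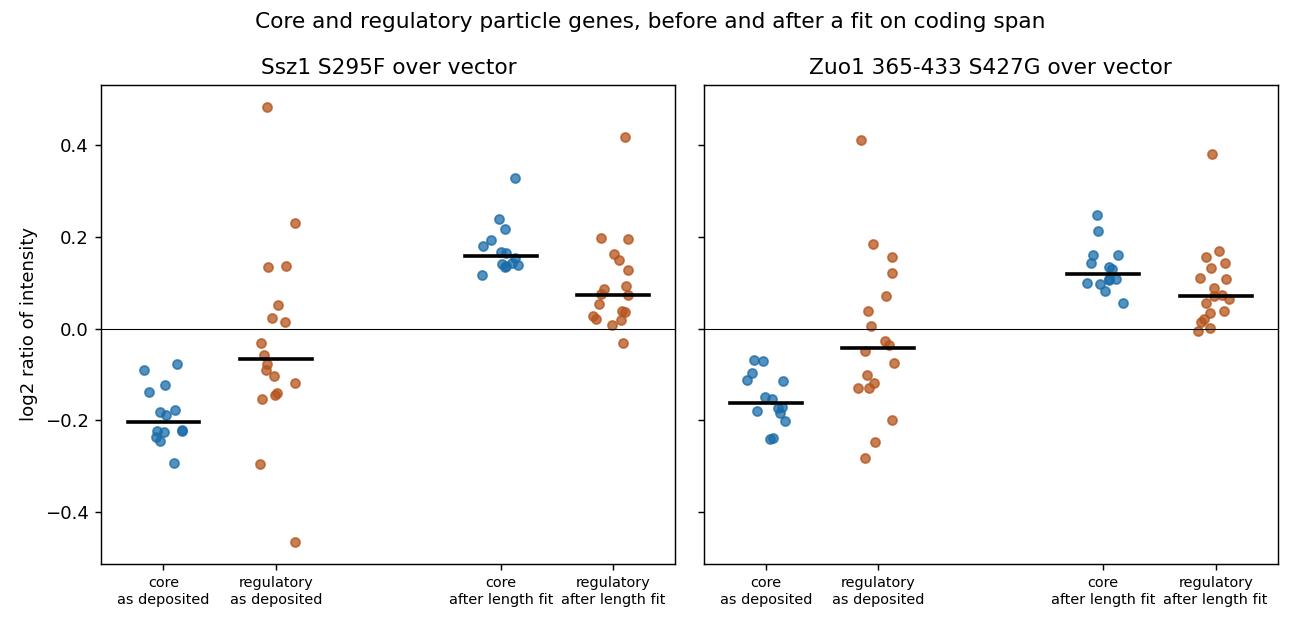
Log2 ratios to vector of the 14 core and 18 regulatory particle genes as deposited and after the local fit on coding span was subtracted, for Ssz1 S295F (left) and Zuo1 365-433 S427G (right). Each point is a gene and the black line is the median. The core median lies below the regulatory median as deposited (-0.20 and -0.07 with Ssz1 S295F) and above it after the fit (0.16 and 0.07).

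The construct arrays were close to each other for most members, with RPN4 and RPN13 the furthest apart. For the Zuo1 fragment over Ssz1 S295F, the 32 subunits had a median of 0.02 and ran from -0.07 to 0.18, and the median of all genes was 0.03. The core median was 0.04 and the regulatory median 0.01, a difference of 0.03 ± 0.01, and after the fit on span it was -0.04. By sign, 12 members were higher and 5 lower in every block, where 46.1% of genes were higher and 30.9% lower. RPN13 had the largest positive ratio, reading 2881 with the Zuo1 fragment and 2538 with Ssz1 S295F (0.18 ± 0.03). RPN4 had the largest negative one, reading 3908 with the Zuo1 fragment and 4532 with Ssz1 S295F. RPN4 was thus the member on which the constructs differed most, at 0.86-fold. Of all genes, 90.9% had a higher ratio than RPN4 and 12.5% a higher one than RPN13.

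Genes that act around the proteasome were described from 6 lists with 38 genes in all, the activators and the ligase above among them. None of the 38 passed 2-fold in any comparison, where 5.02% of all genes were higher and 2.77% lower for Ssz1 S295F, 3.64% and 0.866% for the Zuo1 fragment, and 0.138% each way between the constructs. Proteasome assembly factors and alternative caps (14 genes) had a median of -0.36 for Ssz1 S295F and -0.28 for the Zuo1 fragment, lower than the median of any group of subunits above, with 12 of 14 below vector in each comparison, where 3802 and 3898 of 5777 genes were. Relative to the median of all genes, 10 and 11 of the 14 were below it. They include SEM1, a small lid component in yeast that is not among the 33 members and is named outside the naming rule. FUB1, a relative of a mammalian proteasome inhibitor, read 1367 with Ssz1 S295F, 1448 with the Zuo1 fragment and 2149 with vector (-0.65 ± 0.05 and -0.57 ± 0.05). NAS2, a chaperone gene of base assembly, was at -0.61 ± 0.05 and -0.51 ± 0.03, and the core assembly chaperone genes ADD66 (-0.57 ± 0.08 and -0.49 ± 0.05) and POC4 (-0.56 ± 0.04 and -0.45 ± 0.03) were close to it. These 4 genes span 447 to 804 bp, and after the fit on span they were at -0.29, -0.21, -0.23 and -0.06 with Ssz1 S295F. NAS2 and POC4 read low on every array, between the 16.9th and 22.5th percentiles, so the size of their ratios is less certain.

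HSM3, another base chaperone gene (0.18 and 0.17), and BLM10, which encodes an alternative cap of the core (0.49 and 0.34), were the 2 genes of this list above vector, named after their values were seen. BLM10 read 6644 with Ssz1 S295F, 5981 with the Zuo1 fragment and 4732 with vector, and its span is 6432 bp. After the fit on span the list's median was -0.03 for Ssz1 S295F and -0.06 for the Zuo1 fragment, below the 0.14 and 0.11 of the subunits.

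Proteasome-bound enzymes and ubiquitin shuttles (5 genes) had medians of -0.05 and -0.15, or 0.10 and -0.02 relative to the median of all genes. The shuttle genes DSK2 (-0.13 and -0.22) and RAD23 (-0.05 and -0.02), the deubiquitinase gene UBP6 (0.07 and 0.14) and the ligase gene HUL5 (-0.28 and -0.20) all stayed under 1.5-fold. After the fit on span HUL5 was at -0.35 and -0.23, the lowest of the 38 genes with Ssz1 S295F. Cdc48, which extracts ubiquitinated proteins for the proteasome, and its cofactors (7 genes) had medians of 0.03 and 0.03. NPL4, a cofactor of Cdc48, read 2555 with Ssz1 S295F, 2260 with the Zuo1 fragment and 1369 with vector. Its ratios were 0.90 ± 0.19 and 0.72 ± 0.32, and in the blocks of the Zuo1 fragment they were 0.36, 0.97 and 0.83, so the size was poorly fixed. Its partner UFD1 was at -0.22 ± 0.06 and -0.25 ± 0.03, and CDC48 at 0.14 ± 0.15 and 0.14 ± 0.10, within about a block SD of vector with Ssz1 S295F. After the fit on span UFD1 was at -0.02 and -0.07, and NPL4 at 0.83 and 0.68. OTU1, another cofactor, was at -0.08 in both comparisons, or 0.07 and 0.05 once centred.

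Ubiquitin genes and the ubiquitin-activating enzyme gene (5 genes) had medians of -0.16 and -0.08, or -0.01 and 0.04 relative to the median of all genes. UBA1, the activating enzyme gene, was at 0.20 ± 0.06 and 0.10 ± 0.06. RPL40A (-0.21 and -0.16), RPL40B (-0.17 and -0.08) and RPS31 (-0.16 and -0.12) encode ubiquitin fused to ribosomal proteins. UBI4, the stress-induced polyubiquitin gene, was at 0.05 ± 0.01 and -0.01 ± 0.02, named outside the naming rule. Ubiquitin genes share nearly identical coding sequence, and RPL40A and RPL40B encode the same protein, so their single values are uncertain.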

How the data were processed

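The authors deposited 1 linear intensity per gene and block after RMA (robust multi-array average), per the submitters' processing notes. The program that ran it was not given in the sources used here. RMA sets each array on a common scale, so an overall change in messenger RNA would not be visible. There are 3 blocks per array, each summarised by the authors over up to 8 probes (8 for 32 members, 7 for PRE7), per the file headers. A second deposited column with no stated meaning was not used.

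Block intensities were put on the log2 scale and averaged, with no pseudocount or filter, and ratios are differences between arrays (Python 3.11.15, pandas 2.3.3). Trends were fitted over all genes by loess (statsmodels 0.14.6, 0.4 of the genes per local fit), and the ratio and loess steps were tested on simulated data. Genes were named by locus tag through RefSeq's gene table of assembly R64 (5771 of 5777 matched). Coordinates are the array's own. Depth is not defined for arrays, and their number, 1 per group, limits the precision.

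The members, lists and alternatives were chosen with earlier results of these data known. All members could be named, as could all activators, ligase and plasmid genes and, of each other list, members past 2-fold and up to 4 with the largest ratios. Promoter sequences were not used here. The neighbours of RPN4 and pairs of members within 10 kb were named by position. The alternatives were centring on the median of all genes, loess on mean level or on coding span, further quantile normalization, each block alone, the deposited series-wide table (the linear mean of the blocks), leaving out the dimmest 25% of genes, and thresholds of 1.5-fold and 3-fold.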

Additional observations from a re-analysis of the deposited data

How the results depend on the processing

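Under 9 alternatives each, RPN4 stayed above vector, between 1.05 and 1.26 for Ssz1 S295F and between 0.86 and 1.03 for the Zuo1 fragment. The count of members past 2-fold was 0 with Ssz1 S295F at 3-fold (main 1). With the Zuo1 fragment it was 1 after centring on the median of all genes, 1 after loess on mean level and 1 at 1.5-fold (main 0), RPN4 in each case.

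The sign of the small differences depended on the processing. Centring reversed the median of the 33 members to 0.026 with Ssz1 S295F (main -0.12), to 0.011 with the Zuo1 fragment (main -0.11) and to -0.0080 between the constructs (main 0.02), and loess on coding span reversed it to 0.14, 0.11 and -0.027. Loess on mean level gave -0.072, -0.068 and 0.0045. Block 2 alone gave -0.096, -0.11 and 0.0076, and block 3 alone -0.11 with the Zuo1 fragment. The core minus regulatory difference was reversed by loess on coding span in each comparison, to 0.085 (main -0.14), 0.047 (main -0.12) and -0.037 (main 0.03). It was -0.093 in block 3 alone with the Zuo1 fragment and 0.045 in block 1 alone between the constructs. Of these alternatives, only the fit on span turned that difference. The cause of the trend with span was not tested. The other 65 values of these medians, differences and counts moved by less than the SD over blocks, or by 1.5 times or less for a count. No paired analysis was possible because each group has 1 array.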

Other observations

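Genes beside RPN4 on chromosome IV did not share its ratio. GPM2, which ends 224 bp away, read 95.5 with Ssz1 S295F, 122 with the Zuo1 fragment and 254 with vector, with log2 ratios of -1.41 ± 0.10 and -1.05 ± 0.04. These readings lie at the 3.03rd, 3.57th and 5.59th percentiles of their arrays, so the size of the ratios is uncertain. OSH2, 954 bp away on the other side, read 5021, 5073 and 4630 (0.12 ± 0.02 and 0.13 ± 0.05).

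The members lie on 13 chromosomes, and 3 pairs lie within 10 kb of each other. PRE4 and RPN12 are 2638 bp apart on chromosome VI, RPT4 and RPN8 are 2206 bp apart on chromosome XV, and PRE2 and RPN7 are 9241 bp apart on chromosome XVI. Their ratios with Ssz1 S295F were -0.18 and -0.30, 0.02 and -0.15, and -0.12 and -0.08.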
